A study of Mus musculus with 6 samples.

Results

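The genes described here are 6 keratins, Krt5, Krt14, Krt15, Krt8, Krt18 and Krt19, and 4 further genes of embryonic surface epithelium, Trp63, Sfn, Dsp and Epcam. They are 10 of the 17348 genes in a table of RNA sequencing from the mouse cortex at E13.5. They were chosen by their read counts, because keratin transcripts had been seen in only 1 of the 6 libraries, cKO replicate 3. Their level in that library against the others is therefore a description and was given no test. The choice also used the near-absence of keratins from the other 5 libraries. For the keratins, a small difference between WT and cKO among those libraries was therefore largely fixed beforehand.

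Of the 6 libraries, 3 were labelled WT and 3 cKO, with brain as the tissue, and the study dissected the cortices at E13.5. In the cKO embryos, on a C57BL/6J background, a floxed part of Ybx1 was removed by Nestin-Cre, a transgene active in neural progenitors and their progeny. The controls were littermates labelled WT, and the paper's sequencing methods also call them wild type. Elsewhere the paper defines its controls as Ybx1 fl/fl, so their exact genotype is not certain. All libraries came from the same stage. Cells outside the neural lineage may keep Ybx1 in such a model, which was not measured here. These are bulk libraries, so more cells of a type and more RNA per cell cannot be told apart.

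The libraries held between 15907486 and 16282921 estimated counts, and 0 counts allow up to 0.181 to 0.188 CPM, counts scaled to a common library size, taken as 3 counts of the library. Between 15677 and 15754 genes were detected in 5 libraries and 16296 in cKO replicate 3. Ybx1 was at 83 to 146 CPM in the cKO libraries and at 528 to 1220 CPM in the WT libraries, with WT replicate 2 at the low end of the WT range. Summed CPM of 15 cortex markers was 6350 in cKO replicate 3 and between 6660 and 8050 in the other libraries, so the labelled tissue was present in all of them.

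Keratins are intermediate filament proteins that assemble from pairs of a type I and a type II chain. Embryonic surface ectoderm and other simple epithelia use Krt8 with Krt18 and Krt19, and the basal layer of stratifying epidermis uses Krt5 with Krt14 and Krt15. Trp63 encodes the transcription factor p63, which is required for a stratified epidermis, and Sfn encodes the adaptor protein stratifin, or 14-3-3 sigma. Dsp encodes desmoplakin, which ties keratin filaments to desmosomes, and Epcam encodes an adhesion protein of epithelial membranes. Cortical neural progenitors and neurons build their filaments mainly from other proteins, such as vimentin and neurofilaments.

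In RefSeq positions of build GRCm38.p6, the type II genes lay on chromosome 15 and the type I genes apart from Krt18 on chromosome 11. Krt5 was at chr15:101707069-101712905, Krt8 at chr15:101996711-102004342 and Krt18, a type I gene placed in the type II cluster, at chr15:102028216-102032026. Only 23873 bases separated Krt8 from Krt18, whereas 283805 bases separated Krt5 from Krt8. Krt15 was at chr11:100131759-100135949, Krt19 at chr11:100140810-100145926 and Krt14 at chr11:100203162-100207510. Krt15 and Krt19, a gene of the basal layer and a gene of simple epithelia, were 4860 bases apart. Trp63 was at chr16:25683763-25892088, Sfn at chr4:133600556-133602168, Dsp at chr13:38151294-38198577 and Epcam at chr17:87635979-87651127. Within these spans RefSeq placed another gene only in Trp63, the gene Gm24928.

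The windows around the start sites of Krt5, Krt8, Krt18 and Epcam are shown because these genes stand for the different patterns of counts described next: absent outside 1 library, rare outside it, and present in all libraries. Each holds 250 bases before and 50 after the start, from RefSeq on GRCm38.p6, 5′ to 3′ on the strand of the gene. Capitals mark ATAAA on that strand between 15 and 45 bases before the start, and CATGCCC, which fits a part of the recognition site of the p53 family to which p63 belongs.
Krt5, chr15:101712856-101713155, minus strand: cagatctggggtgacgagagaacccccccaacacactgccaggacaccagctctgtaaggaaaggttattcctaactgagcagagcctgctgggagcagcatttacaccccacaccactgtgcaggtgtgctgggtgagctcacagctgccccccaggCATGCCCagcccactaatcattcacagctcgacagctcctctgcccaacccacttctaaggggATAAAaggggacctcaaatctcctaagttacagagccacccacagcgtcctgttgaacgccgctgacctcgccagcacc
Krt8, chr15:102004293-102004592, minus strand: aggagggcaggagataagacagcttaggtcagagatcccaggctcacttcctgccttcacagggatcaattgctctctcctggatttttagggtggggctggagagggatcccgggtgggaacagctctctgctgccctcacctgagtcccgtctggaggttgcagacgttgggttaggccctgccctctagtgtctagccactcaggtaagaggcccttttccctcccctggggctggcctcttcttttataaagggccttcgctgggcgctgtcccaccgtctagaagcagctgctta
Krt18, chr15:102027966-102028265, plus strand: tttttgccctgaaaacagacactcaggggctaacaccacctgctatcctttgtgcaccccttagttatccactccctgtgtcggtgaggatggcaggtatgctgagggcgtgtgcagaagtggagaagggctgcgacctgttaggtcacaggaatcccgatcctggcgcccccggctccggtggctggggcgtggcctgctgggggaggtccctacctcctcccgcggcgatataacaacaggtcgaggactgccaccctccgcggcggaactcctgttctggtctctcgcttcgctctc
Epcam, chr17:87635729-87636028, plus strand: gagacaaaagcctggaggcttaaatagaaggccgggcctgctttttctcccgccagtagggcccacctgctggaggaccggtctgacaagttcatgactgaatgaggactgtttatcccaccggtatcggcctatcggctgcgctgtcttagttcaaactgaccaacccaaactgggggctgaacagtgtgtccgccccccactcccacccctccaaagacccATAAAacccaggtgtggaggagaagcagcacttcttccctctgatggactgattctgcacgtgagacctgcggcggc

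The window table matched 7 of the 10 genes, without Krt15, Krt19 and Trp63. The start site of the Krt14 window lay 1480 bases inside the gene, and this window was not used. This left Krt5, Krt8, Krt18, Sfn, Dsp and Epcam. ATAAA between 15 and 45 bases before the start, on the gene's strand, was in 2 of these 6 windows, at 29 bases before the start in Krt5 and at 27 in Epcam, and in 5.26% of the 32851 windows of the whole table. In Krt8 the same letters began at the first base of the annotated gene, so they lay outside this range and were not counted. Whether transcription begins at that base was not tested. CATGCCC, on either strand, was in 1 of the 6 windows, that of Krt5 at 92 bases before the start, and in 3.76% of all windows. The letters GCCNNNGGC, of the AP-2 type and the same on both strands, were in the windows of Krt18 and Dsp and in 16.6% of all. GGGCGG was in those of Dsp and Epcam and in 35.7% of all, and TGANTCA was in none of the 6 and in 7.81% of all, both strands counted. These matches describe letters in a window and are not measurements of binding.

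Krt5 had 2153 estimated counts in cKO replicate 3, 1 in WT replicate 3 and 0 in the other 4 libraries. Krt14, the type I partner of Krt5 in the basal layer, had 823 counts in cKO replicate 3, 1 in WT replicate 3 and 0 in the other 4. Krt15, a further type I chain of basal cells, had 504 counts in cKO replicate 3, 1 each in WT replicates 2 and 3 and 0 elsewhere. The 3 basal keratins were thus at or under the detection limit of 3 counts in 5 libraries, of both genotypes, and high in the sixth. cKO replicate 3 held 99.95% of the summed CPM of Krt5, 99.87% of Krt14 and 99.59% of Krt15.

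Trp63 had 257 counts in cKO replicate 3 against 2, 3 and 1 in the WT libraries and 1 and 3 in the other cKO libraries. It was detected in every library, but at 3 counts or fewer outside cKO replicate 3, which held 96.1% of its CPM. Sfn differed from the other basal genes. It had 18, 15 and 14 counts in the WT libraries, 20 and 11 in cKO replicates 1 and 2 and 367 in cKO replicate 3. Its CPM was 22.1 in cKO replicate 3 and 0.974 ± 0.219 (SD, n = 5) in the others, a ratio of 22.7. Without cKO replicate 3 the WT and cKO counts of Sfn overlapped.

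**Figure D1:**
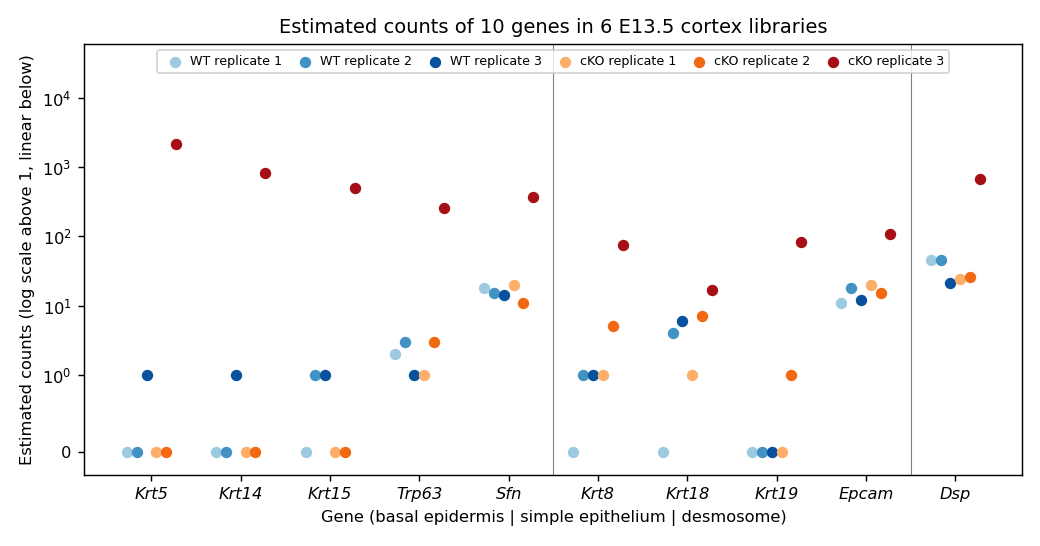
Estimated counts of the 10 genes (y axis, logarithmic above 1 and linear below) in each of the 6 libraries (colours; blue, WT; orange and red, cKO), grouped along the x axis into basal epidermis, simple epithelium and desmosome. The red point of cKO replicate 3 is the highest for each gene, from 17 counts for Krt18 to 2153 for Krt5, while Sfn, Epcam and Dsp also have 11 or more counts in every other library.

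Among the genes of simple epithelia, Krt8, the type II chain, had 75 counts in cKO replicate 3, 5 in cKO replicate 2, 1 each in WT replicates 2 and 3 and cKO replicate 1, and 0 in WT replicate 1. Krt18, its type I partner, had 17 counts in cKO replicate 3, 7 in cKO replicate 2, 6 in WT replicate 3, 4 in WT replicate 2, 1 in cKO replicate 1 and 0 in WT replicate 1. Krt18 was the keratin of the 6 with the lowest share in cKO replicate 3, 47.7% of its CPM, with an exact 95% binomial interval of 31.4 to 66.0% around the share of its counts. The share of Krt8 was 90.0%, with an interval of 81.9 to 95.8%. Both keratins had their second highest count in cKO replicate 2 and none in WT replicate 1, but these are counts of 7 or fewer.

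Krt19 followed the basal keratins in its distribution. It had 82 counts in cKO replicate 3, 1 in cKO replicate 2 and 0 in the other 4 libraries, and 98.7% of its CPM was in cKO replicate 3, with an interval of 93.5 to 99.97% around the share of its counts. Simple-epithelial keratins were therefore found outside cKO replicate 3 only as few reads, 0 to 5 of Krt8, 0 to 7 of Krt18 and 0 or 1 of Krt19. Epcam was the simple-epithelial gene found in all libraries. It had 11, 18 and 12 counts in the WT libraries, 20 and 15 in cKO replicates 1 and 2 and 108 in cKO replicate 3. Its share in cKO replicate 3 was 57.8%, and its CPM there was 6.50 against 0.949 ± 0.236 (SD, n = 5), a ratio of 6.85.

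Dsp had 45, 45 and 21 counts in the WT libraries, 24 and 26 in cKO replicates 1 and 2 and 668 in cKO replicate 3. It had the most counts of the 10 genes in each library other than cKO replicate 3. The ratio of its CPM in cKO replicate 3, 40.2, to the mean of the others, 2.01 ± 0.735 (SD, n = 5), was 20, close to that of Sfn. cKO replicate 3 held 80.0% of the CPM of Dsp.

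Summed over the genes of each group, the 5 basal genes had 4104 counts in cKO replicate 3 and 14 to 21 in each other library, of which Sfn gave the larger part. The 4 simple-epithelial genes had 282 counts against 11 to 28, and Epcam gave 76 of their 103 counts outside cKO replicate 3. cKO replicate 3 held 97.7% of the CPM of the basal sum, with an interval of 97.3 to 98.2% around the share of counts, and 72.5% of the simple-epithelial sum, with an interval of 68.5 to 77.6%. The 10 genes together made up 0.0313% of the counts of cKO replicate 3 and 0.000357 to 0.000534% of the other libraries. Intervals cover counting error only.

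**Figure D2:**
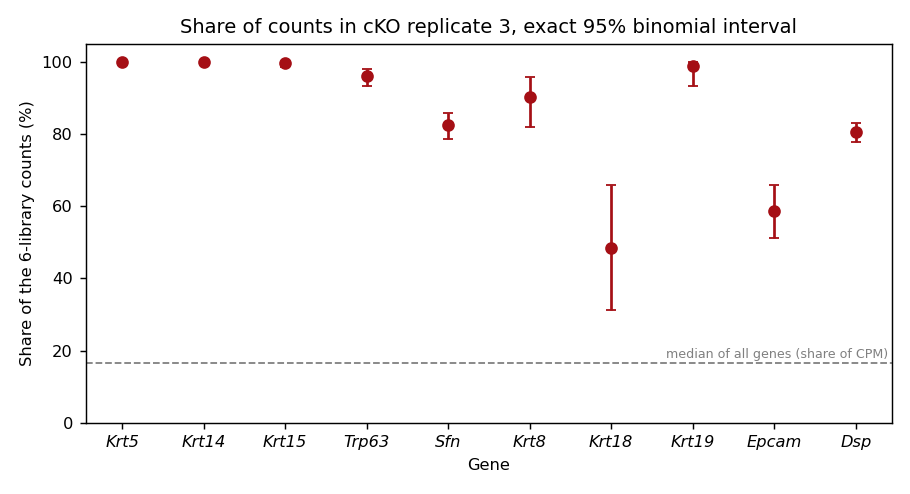
Share of each gene's counts over the 6 libraries that fell in cKO replicate 3 (y axis, percent), with exact 95% binomial intervals for counting error, and the median share of CPM over all genes with 20 or more counts as a dashed line (16.5%). Krt5, Krt14, Krt15 and Krt19 lie close to the top, Sfn and Dsp near 80%, and Krt18 and Epcam lowest.

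These shares were read against all genes with 20 or more counts over the 6 libraries, 14576 in number. cKO replicate 3 held 95% or more of the CPM of 5 of the 10 genes (Krt5, Krt14, Krt15, Trp63 and Krt19) and of 0.583% of all genes, and 50% or more of 9 of the 10 and of 2.13% of all. It had the highest CPM for all 10, as for 17.8% of all genes. The members were picked from this library, so nothing further is read from these shares. Genes with 95% or more of their CPM in a single library numbered 85 for cKO replicate 3, 2 for cKO replicate 2 and 0 for each of the other 4.

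Levels of different genes were compared per length, as TPM, transcript abundance corrected for length, within cKO replicate 3. Krt5 was highest with 142 TPM, above 93.1% of the genes listed, followed by Krt14 with 78.6, Krt15 with 44.4 and Sfn with 34.9 TPM. Dsp with 9.79, Krt19 with 9.57, Epcam with 7.70, Trp63 with 7.60 and Krt8 with 6.24 TPM lay close together, and Krt18 was lowest with 1.92. The type II chain exceeded its usual type I partner in both pairs, by 1.81-fold for Krt5 over Krt14 and by 3.25-fold for Krt8 over Krt18. Krt5 was 0.938 of the summed TPM of the type I chains Krt14, Krt15 and Krt17. Outside cKO replicate 3 the highest TPM of the 6 keratins was 0.79, for Krt18 in cKO replicate 2. This order comes from 1 library and carries no replicate error.

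The table listed 27 keratin genes, 11 on chromosome 11 and 16 on chromosome 15, and 10 of them had 20 or more counts in at least 1 library. Besides members, Krt17, a type I chain of embryonic epidermis and skin appendages, had 286 counts in cKO replicate 3 and 1 to 3 in the others. Krt7, a type II chain of simple epithelia, had 266 counts in cKO replicate 3, 1 in cKO replicate 2 and 0 elsewhere. Krt4, a type II chain of stratified mucosa, had 20 counts in cKO replicate 3 and 0 elsewhere. The Krt7 level of 25.8 TPM was above that of Krt8, so Krt7 and Krt8 together had 2.79 times the summed TPM of Krt18 and Krt19.

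Not every keratin had this distribution. Krt10, the type I chain of suprabasal epidermis, had 129, 130 and 141 counts in the WT libraries and 123, 116 and 114 in the cKO libraries, so cKO replicate 3 was the lowest of the 6. Krt1, its type II partner, had 16, 18 and 20 counts in the WT libraries and 19, 23 and 25 in the cKO libraries. The Krt10 level was 4.62 to 6.20 TPM and that of Krt1 1.02 to 1.47 TPM over all libraries, without the rise seen for the basal keratins. Without Krt10, the listed keratins summed to 4296 counts in cKO replicate 3 and to between 26 and 65 in each other library.

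**Figure D3:**
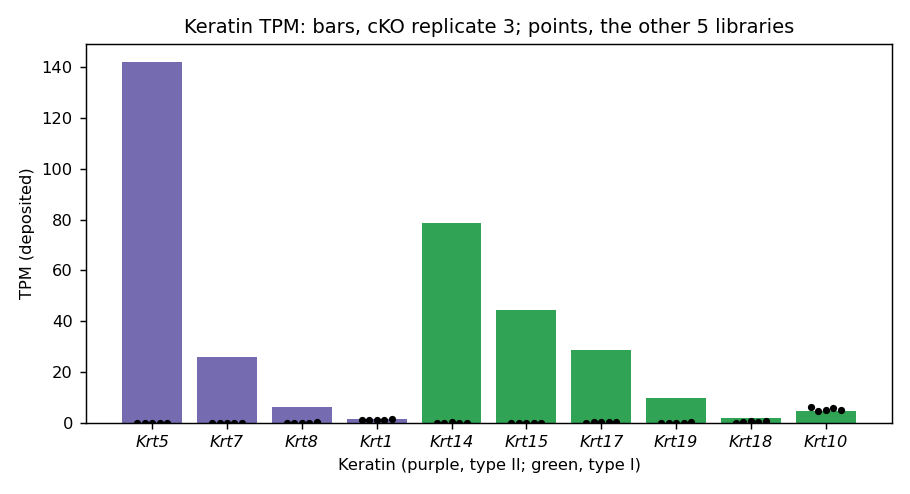
TPM (y axis) of 10 keratins, type II in purple and type I in green, as bars for cKO replicate 3 and as black points for the other 5 libraries. Krt5 (142 TPM) and Krt14 (78.6 TPM) are the tallest bars, and among the keratins shown Krt10 and Krt1 are those with points at the height of the bar.

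Reads from related sequences limit some of these values. Of the 50-base words in the annotated Krt8 transcripts, 29.7% were also found in transcripts of other genes, 26.9% in the pseudogene Krt8-ps. The share was 15% for Sfn, 13.9% for Krt14, mostly with Krt16, 12.2% for Krt5, mostly with Krt6a, 4.66% for Dsp, and under 1% for Krt15 and Krt18. No such word was shared for Krt19, Epcam or Trp63. Krt6a had 12 counts and Krt16 had 1 count in cKO replicate 3, so few reads were assigned to these copies. The small counts of Krt8 and Sfn in the other libraries are the values most open to misassigned reads, which was not tested.

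The 10 genes with most counts in cKO replicate 3 among the 85 that resembled Krt5, with 95% or more of their CPM in that library, were Krt5, Cxcl14, Gjb2, Gabrp, Lox, Krt14, Col6a1, Lum, Krt15 and Col8a1. Cxcl14, a chemokine, had 1730 counts there and 5 to 24 in each other library. Gjb2, which encodes connexin 26, had 1127 counts there and at most 1 in any other library. Gabrp, a GABA receptor subunit expressed outside the nervous system, had 1110 against at most 2. Lox, Col6a1, Lum and Col8a1, which encode matrix proteins or enzymes of connective tissue, had 956, 823, 618 and 443 counts. Of the 85 genes, 37 had 0 counts in all 5 other libraries.

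The profile of Krt8 and Krt18 was matched by other genes. By Euclidean distance between centred log2 CPM over the 6 libraries, the nearest genes to their mean were Lgals1 (0.828), Tmem26 (0.881), Egfr (0.999), Ntn1 (1.10) and Anxa2 (1.19). Lgals1, which encodes galectin-1, had 54, 72 and 85 counts in the WT libraries, 55 and 99 in cKO replicates 1 and 2 and 758 in cKO replicate 3. Anxa2, which encodes a membrane-binding annexin, had 132 to 195 counts outside cKO replicate 3 and 1331 in it. Each of the 5 genes had 6 or more counts in every library. Only genes that passed the filter on low counts used for the tests below were searched, so genes nearly absent outside cKO replicate 3, such as Krt5, were left out beforehand. The profile of Krt8 and Krt18 itself rested on 7 or fewer counts in each library outside cKO replicate 3.

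Other genes of the same structures were then examined in lists. Of 21 further genes of the basal layer and hemidesmosome, the junction that anchors basal cells to the basement membrane, 19 were highest in cKO replicate 3 and 16 had 50% or more of their CPM there. Col17a1, a hemidesmosomal collagen, had 129 counts there and 2 to 14 in the others, and Itgb4, the hemidesmosomal integrin chain, had 195 against 14 to 26. The 3 genes of this list with most counts in that library, Fras1, Itga6 and Tfap2c, are also expressed in brain and had shares of only 22.4%, 16.5% and 15.1%. The sum of the list was 470 CPM in cKO replicate 3 and 256 to 292 CPM in the others.

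Of 12 further desmosome genes, 9 had 20 or more counts, all 9 were highest in cKO replicate 3, and the median share was 90.1%. Pkp1, an epidermal plakophilin, had 159 counts there and 0 elsewhere, Ppl, which encodes periplakin, had 260 against at most 4, and Jup, or plakoglobin, had 553 against 298 to 427. Of 19 further simple-epithelial genes in the table, 16 had 20 or more counts and all 16 were highest in cKO replicate 3, with a median share of 90.5%. Cdh1, which encodes E-cadherin, had 282 counts against at most 2, and Spint2, a protease inhibitor, had 335 against 134 to 185.

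Genes of the suprabasal layers and periderm were less uniform. Of 17 in the table, 12 had 20 or more counts, 8 of these were highest in cKO replicate 3, the median share was 27.2%, and the sum was 59.3 CPM against 42.7 to 48.5. Cldn4, a tight junction protein, had 128 counts there against at most 1, whereas Sbsn, a secreted suprabasal protein, had 296 against 307 to 361 and Hopx 177 against 113 to 238. Other genes of the list were higher there, Cldn1 with 54 counts against 1 to 8, Tgm1 with 27 against 0 to 2 and Krt6a with 12 against 0. The late differentiation gene Lor, which encodes loricrin, had 0 counts in cKO replicate 3 and 0 to 2 in the others. Krtdap had 3 counts there and 0 in the others. Both were too near the detection limit in every library to show a lack in this one.

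Markers of other cells differed in how far they were raised in cKO replicate 3. All 19 measured genes of dermis and mesenchyme with 20 or more counts were highest in cKO replicate 3, with a median share of 89.8% and a sum of 840 CPM against 65.5 to 93.9 in the others. The collagen genes Col3a1, Col1a2 and Col1a1 led this list with 2995, 2384 and 2129 counts. In the melanoblast and Schwann precursor list, 5 of 7 genes were highest there and the sum was 55.3 CPM against 39.2 to 48.2, among them Erbb3 with 100 counts against at most 4, while Dct lay within the range of the other libraries (511 against 429 to 569). Of 8 macrophage genes 5 were highest, Mrc1 with 116 counts against 14 to 42, but the sum of the list, 38.8 CPM, lay within 22.5 to 38.9 in the others. The part of these cells in the keratin counts was not tested.

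Lists of other tissues lay within or near the range of the other libraries. Cartilage and bone summed to 142 CPM in cKO replicate 3 and to 144 to 190 in the others, led by Col2a1, Alpl and Col9a1. Most of this sum was Col2a1, at 126 CPM against 131 to 176, so it says little about the other genes. Of the 4 genes of this list with 20 or more counts, 2 were highest in cKO replicate 3. These were Col9a1 with 24 counts against 11 to 17 and Runx2 with 17 against 1 to 6. Skeletal muscle summed to 2.65 CPM against 2 to 3.07 and choroid plexus to 6.20 against 2.69 to 7.34. The choroid plexus markers Ttr and Kl were at 0 counts in cKO replicate 3 and at 0 to 2 in the others, under the limit of 3 counts. Clic6 of the same list had 11 counts in cKO replicate 3 against 0 to 5. Meninges as a list summed to 1460 CPM against 1170 to 1520, mostly from Nnat and Igfbp2, which brain cells also express. Within that list Slc6a13 had 0 counts in cKO replicate 3 and 0 to 2 in the others. Gjb2, described above among the genes that resembled Krt5, had 1127 in cKO replicate 3 and at most 1 elsewhere. Endothelium was at 108 CPM, above the 75.3 to 103 of the others. As in the macrophage list, 5 of its 8 genes were highest in cKO replicate 3, with a median share of 20.5%. Erythroid genes were at 690 CPM against 643 to 1120, and olfactory and lens epithelium at 22.9 against 17.2 to 25.2. The leading genes of these lists were Mylpf, Tnnt1 and Myh3 for muscle, Aqp1, Otx2 and Trpv4 for choroid plexus, Nnat, Igfbp2 and Zic1 for meninges, Kdr, Cdh5 and Pecam1 for endothelium, Hba-a1, Hbb-y and Hba-a2 for erythroid cells, and Eya1, Mip and Omp for olfactory and lens epithelium. Among macrophage genes, Csf1r had 153 counts against 103 to 197 and Cx3cr1 114 against 76 to 128. The cortex genes Dcx and Tubb3 had no rise either, with 16317 counts of Dcx against 14496 to 18247 and 12456 of Tubb3 against 11688 to 14699.

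**Figure D4:**
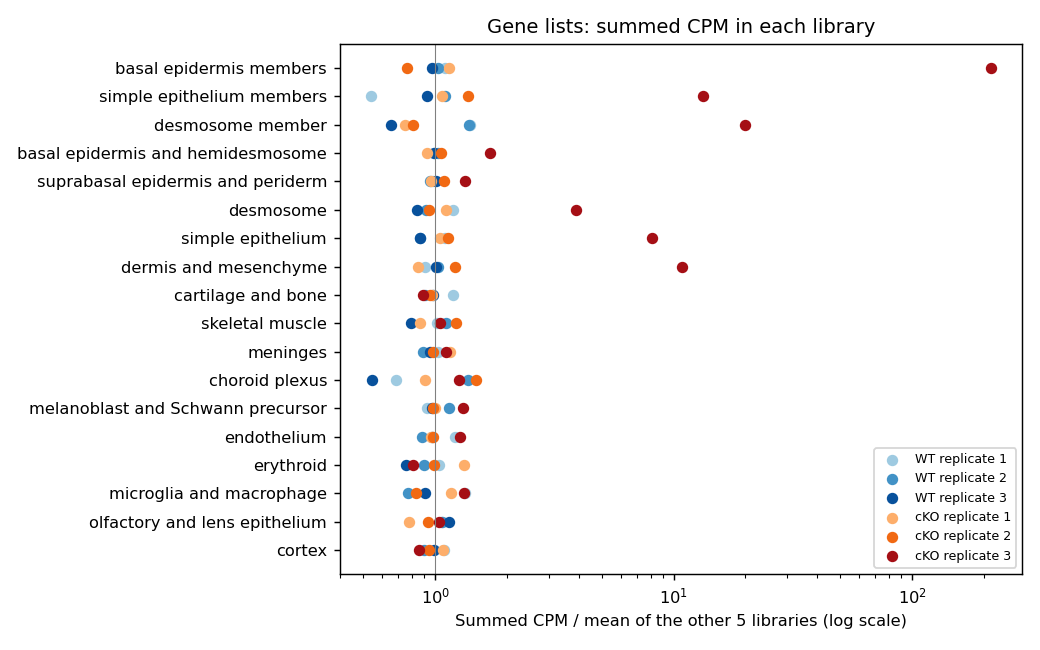
Summed CPM of each gene list in each library, divided by the mean of the 5 libraries other than cKO replicate 3 (x axis, logarithmic; 1 is that mean), with WT in blue and cKO in orange and red. cKO replicate 3 stands farthest to the right for the 10 genes, desmosome, simple epithelium and dermis and mesenchyme, less so for the basal, suprabasal and melanoblast lists, and within the other libraries for skeletal muscle, meninges, choroid plexus, erythroid, microglia and macrophage, and olfactory and lens epithelium.

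The comparison the study design implies is cKO against WT. In edgeR's quasi-likelihood test over 13340 genes and all 6 libraries, 0% of genes passed an adjusted p of 0.05 in either direction. The lowest adjusted p in this test was 0.0953. Ybx1, the deleted gene, was therefore not called either, although it was far lower in every cKO library than in every WT library. At an unadjusted p under 0.05 there were 234 higher and 242 lower in cKO, against 148 and 192 in DESeq2 and 203 and 243 in limma-voom. At an adjusted p of 0.05, DESeq2 called 2 genes in each direction and limma-voom 0. Only Sfn, Dsp and Epcam passed the filter on low counts, and the other 7 genes were not tested. Because the choice of members used cKO replicate 3, their differences in this fit are given without a p. The log2 fold change, cKO minus WT, was 3.03 (SE 1.22) for Sfn, 2.65 (SE 1.21) for Dsp and 1.76 (SE 0.742) for Epcam. The sizes depended on the model, since limma-voom gave 1.48 (SE 1.36) for Sfn and 1.11 (SE 1.34) for Dsp on the same libraries. CPM of the genotypes overlapped for all 10 genes, while CPM was higher in every cKO library than in every WT library for 4.16% of the genes tested.

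Without cKO replicate 3, the same test over 13424 genes also called 0% at an adjusted p of 0.05, with 138 higher and 188 lower at an unadjusted p under 0.05. The keratins were chosen as nearly absent from these 5 libraries, so their lack of a genotype difference here was largely fixed by the choice. The log2 fold change, cKO minus WT, was -0.01 (SE 0.366) for Sfn, -0.56 (SE 0.364) for Dsp and 0.36 (SE 0.355) for Epcam, each with an adjusted p of 1 in edgeR. The sign of Sfn and Dsp thus turned when 1 library was left out. The WT and cKO values of all 3 overlapped in these 5 libraries, where 15.6% of the genes tested had no overlap in either direction. Krt5, Krt14, Krt15, Krt8, Krt18, Krt19 and Trp63 were removed by the filter on low counts. In the fit of these 5 libraries with no filter, none of the 7 was called, and the edgeR adjusted p was 0.998 or above. Each of the 7 had only 1 to 18 counts in all over these 5 libraries, too few for this fit to decide on a genotype difference.

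**Figure D5:**
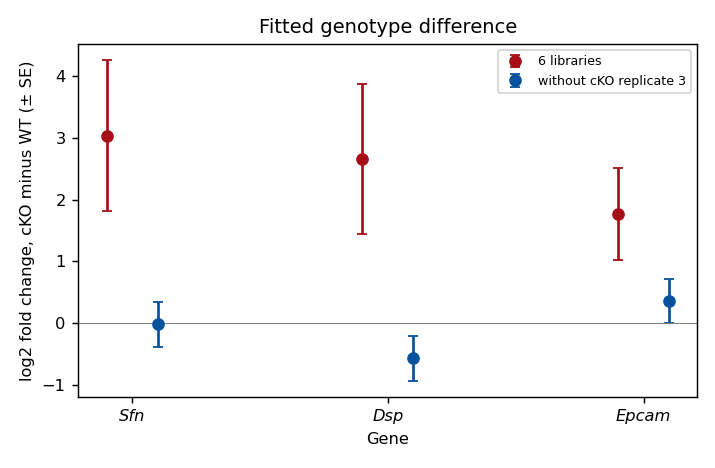
Fitted log2 fold change (y axis, cKO minus WT, bars are SE) of Sfn, Dsp and Epcam from edgeR with all 6 libraries (red) and without cKO replicate 3 (blue). The values between 1.76 and 3.03 with all libraries fall to between -0.56 and 0.36 without that library.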

How the data were processed

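RNA was extracted from E13.5 cortex with Trizol and sequenced on a DNBSEQ platform, with 3 libraries of each genotype. The submitters' processing notes name HISAT2 2.2.1, Bowtie2 2.4.5, RSEM 1.3.1 and builds GRCm38 and mm10. Whether counting used strand, and the annotation, are not given in the sources used here. The authors deposited 1 table with estimated counts not normalised for depth (10.9% of values not whole), TPM values deposited by the authors made comparable between libraries by a common total, and FPKM values deposited by the authors, which were not used. Its 6 columns of averages per genotype were left out.

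Estimated counts were rounded. The main test was edgeR 4.0.16 in R 4.3.3 (glmQLFit and glmQLFTest, TMM, filterByExpr with a minimum count of 10 and total of 15, Benjamini-Hochberg adjustment over all genes tested), with genotype as the only term, once with all libraries and once without cKO replicate 3. CPM used TMM library sizes, and shares were the CPM of cKO replicate 3 over the sum of 6 libraries. Alternatives were RLE factors, no filter, DESeq2 1.42.0, limma-voom (limma 3.58.1), a replicate block, each library left out, TPM and plain totals. A fit without the epidermal, epithelial, desmosome and dermal genes was added after seeing the data. On simulated data with 200 genes changed 4-fold, the test recovered 93.5% of them among 13340 genes with all libraries, with 7 false calls. Without cKO replicate 3 it recovered 96.0% among 13424 genes, with 13 false calls. Simulated counts were drawn independently for each gene and library, with no outlying library, so recovery in the real data may be lower.

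The members and the gene lists were chosen with earlier results of these data known. Named genes were the members, keratins with 20 or more counts in a library, the 3 genes of each list with most counts in cKO replicate 3 (some are not reported here), the 10 with most counts there among genes with 95% or more of their CPM there, the 5 nearest to Krt8 and Krt18, and Ybx1. Any other gene was picked once its values were known. Words of 50 bases were compared over GENCODE M21 transcripts. Of the Entrez identifiers, 99.7% were found in RefSeq. The series describes 3 sequencing batches without saying which libraries each holds, so batch cannot be told apart from library.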

Additional observations from a re-analysis of the deposited data

How the results depend on the processing

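The number of genes called by edgeR was 0 in each direction with all libraries and without cKO replicate 3. DESeq2 called 2 higher and 2 lower in both fits. With a replicate block there were 1 higher and 1 lower with all libraries, and 13 higher and 6 lower without cKO replicate 3. Leaving out each library in turn gave 0 to 1 in each direction. Without cKO replicate 3, leaving out cKO replicate 1 or 2 leaves 1 cKO library, which is assumed to vary like the WT libraries. The labels do not say whether replicate numbers pair the libraries. Between libraries of the same replicate number, correlations of deviations from the group mean were 0.406 and 0.31 for replicates 1 and 2. The correlation was -0.02 for replicate 3, which holds cKO replicate 3. Whether the libraries were paired was not tested. RLE factors, limma-voom and no filter gave 0 in both fits. Removal of the epidermal, epithelial, desmosome and dermal lists (added after seeing the data) was run with all libraries only and also gave 0.

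With all libraries, leaving out each library gave log2 fold changes of -0.013 to 3.57 for Sfn and -0.56 to 3.20 for Dsp, the negative values being those without cKO replicate 3. On all libraries limma-voom gave 1.48 for Sfn, 1.11 for Dsp and 1.23 for Epcam, and the replicate block 2.01, 1.42 and 1.40. Without cKO replicate 3, Sfn lay between -0.50 and 0.35, with 0.10 when WT replicate 1 and 0.35 when cKO replicate 2 was also left out. The share of the basal sum in cKO replicate 3 was 97.3% from TPM and 97.7% from CPM. Both rest on the same reads, so the interval for counting error does not measure their difference. The cause of these changes was not tested. Counts of 7 or fewer for Krt8 and Krt18 outside cKO replicate 3 do not allow an order of those libraries.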

Other observations

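The Iroquois and Wnt families were examined after values of some members were seen. All 6 Iroquois genes in the table were highest in cKO replicate 3, and 4 of them had 95% or more of their CPM there. Irx2 had 301 counts in cKO replicate 3, Irx1 had 235, Irx4 had 212 and Irx6 had 31, against at most 2 in any other library. Irx5 had 193 counts against 1 to 4, and Irx3 had 159 against 9 to 18. The 16 Wnt ligand genes were mixed, with 13 highest in cKO replicate 3, 10 with 50% or more of their CPM there and a median share of 77.2%. Among them Wnt6, Wnt10b and Wnt9b had 190, 149 and 63 counts there and 0 elsewhere, Wnt4 had 246 against 2 to 6, and Wnt7b had 3880 against 3625 to 4990. Trim29 and Gjb6, both expressed in stratified epithelia, had 229 and 243 counts against at most 1.

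Hox genes, which specify position along the body axis behind the forebrain, were also found in this library. The table listed 23 of them, all but 1 with their highest CPM in cKO replicate 3. Together they had 442 counts there and 0 to 3 in each other library. Hoxd8 had 63 counts and Hoxa2 had 48, each with 0 counts elsewhere.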
